A study of Arabidopsis thaliana with 6 samples.

Results

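The aliphatic glucosinolate pathway was followed through 5 probe sets of 22746 that were tested on the Affymetrix ATH1 array. The platform annotation named BCAT4 and AT2G31790, the gene of the glucosyltransferase UGT74C1, for 2 of them. The other 3 probe sets had no gene in that annotation and were taken by their identifiers, as probe sets paired with MAM1 (249866_at, locus AT5G23010), CYP83A1 (254687_at, AT4G13770) and MYB28 (247549_at, AT5G61420). That pairing came with the choice of the set and was not checked here, so these 3 are called by their probe set identifiers. Total RNA came from Arabidopsis thaliana plants that were 3 weeks old. The 6 arrays formed 3 groups of 2 biological replicates, namely wild type and plants mutant for CAMTA3, carrying either camta3-1 or camta3-2. The tissue, ecotype and lesion of each allele are not given in the sources available, and CAMTA3 transcript was not analysed here, which leaves the mutant labels unchecked. The CAMTA3 protein binds calmodulin and DNA, and is known for holding back salicylic acid-dependent immune responses.

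Aliphatic glucosinolates are sulfur-rich defence compounds that Arabidopsis makes from methionine and that release toxic products when insects damage the tissue. Methionine is first deaminated, then lengthened in a cycle of condensation, isomerisation and decarboxylation, and returned to an amino acid. The lengthened amino acid is oxidised by cytochromes P450 to an aldoxime and onward, joined to sulfur, and finished by a glucosyltransferase and a sulfotransferase. MYB28 and its relatives are the activators of these genes, and the enzymes are known to be transcribed together.

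In no comparison did any of the 5 reach an adjusted p under 0.05 in limma, which draws each probe set's spread toward a common value. The mean of the mutant alleles lay below wild type for each of the 5, as it did for 62.6% of all probe sets. For the mean of both alleles the log2 fold changes ran from -0.42 to -0.29 with a median of -0.38, against a median of -0.05 over all probe sets. In camta3-1 the median of the 5 was -0.56, and in camta3-2 it was -0.21. Over all probe sets, 1.41% passed for the mean of both alleles, 1.08% in camta3-1, 0.734% in camta3-2 and 0.0044% between the alleles, so that 0 passing of 5 is near the background. The values below are therefore levels and differences with their intervals, and are given in the order of the pathway. In whole-plant or tissue RNA, fewer cells of a type and less RNA per cell cannot be told apart.

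BCAT4 encodes the aminotransferase that deaminates methionine and so feeds the chain-lengthening cycle. Its log2 expression was 11.94 and 12.07 on the wild-type arrays, 11.48 and 11.36 on the camta3-1 arrays and 11.86 and 11.67 on the camta3-2 arrays. All 4 mutant arrays lay below both wild-type arrays, and both camta3-1 arrays lay below both camta3-2 arrays. The log2 fold change for the mean of both alleles was -0.42 (standard error 0.11, 95% confidence interval -0.66 to -0.17, limma adjusted p = 0.148), a level 1.33-fold lower. In camta3-1 it was -0.59 (interval -0.88 to -0.30, limma adjusted p = 0.09) and in camta3-2 -0.24 (interval -0.53 to 0.04, limma adjusted p = 0.524).

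The probe set 249866_at is paired with MAM1, the methylthioalkylmalate synthase that carries out the condensing step of chain lengthening. It gave log2 values of 12.12 and 12.29 in wild type, 11.70 and 11.60 in camta3-1, and 12.06 and 11.92 in camta3-2. The groups did not overlap and followed the same order as for BCAT4, with camta3-1 lowest and wild type highest. The gap between the higher camta3-2 array and the lower wild-type array was only 0.06. For the mean of both alleles the log2 fold change was -0.38 (standard error 0.10, 95% confidence interval -0.63 to -0.14, limma adjusted p = 0.164). Against wild type alone, camta3-1 was at -0.56 (limma adjusted p = 0.0999) and camta3-2 at -0.21 (limma adjusted p = 0.563).

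**Figure D1:**
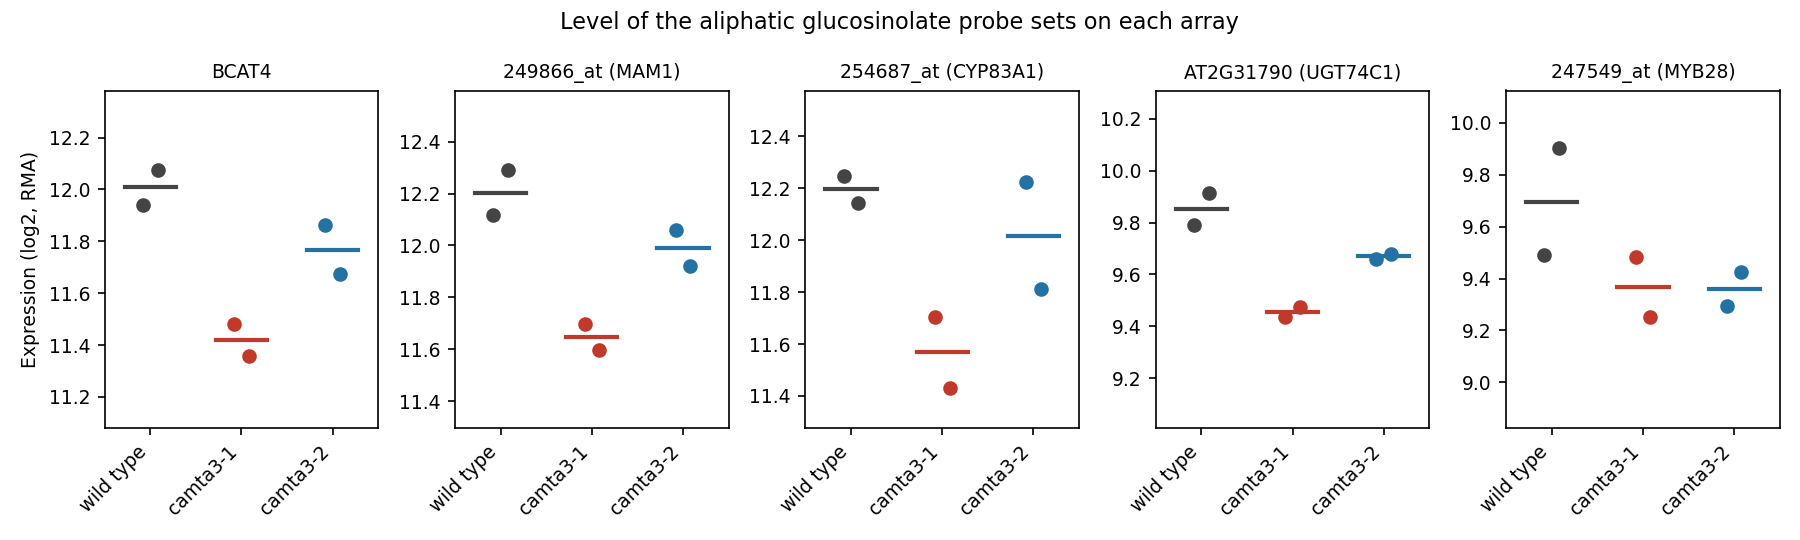
Expression (log2, RMA) of the 5 probe sets on each array by group; points are single arrays, bars are means of the 2 arrays of a group, and each panel spans the same number of log2 units around the mean of its own probe set. The camta3-1 arrays are the lowest for BCAT4, 249866_at, 254687_at and AT2G31790, and the wild-type arrays of 247549_at are spread from 9.49 to 9.90.

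The probe set 254687_at is paired with CYP83A1, the cytochrome P450 that oxidises aliphatic aldoximes. It read 12.25 and 12.14 in wild type, 11.71 and 11.43 in camta3-1, and 12.22 and 11.81 in camta3-2. It was the 1 member in which mutant and wild-type arrays overlapped, since camta3-2 replicate 1 lay between the wild-type arrays. The camta3-1 difference from wild type was the largest of the set, at -0.63 on the log2 scale (standard error 0.17, 95% confidence interval -1.02 to -0.24, limma adjusted p = 0.168). In camta3-2 the log2 fold change was -0.18 (interval -0.57 to 0.21, limma adjusted p = 0.737), and it was 0.03 without camta3-2 replicate 2.

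AT2G31790, the gene of the glucosyltransferase UGT74C1, acts late in the pathway, where the thiohydroximate intermediate receives its glucose. Its log2 level was 9.79 and 9.92 in wild type, 9.44 and 9.47 in camta3-1, and 9.66 and 9.68 in camta3-2. The replicates of each mutant allele were closer together than those of any other member, with SDs of 0.0253 and 0.013 (n = 2 each). The 3 groups did not overlap. The log2 fold change for the mean of both alleles was -0.29 (95% confidence interval -0.51 to -0.07, limma adjusted p = 0.238), with -0.40 in camta3-1 (limma adjusted p = 0.178) and -0.18 in camta3-2 (limma adjusted p = 0.58).

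The probe set 247549_at is paired with MYB28, the transcription factor that switches on the aliphatic genes. Its values were 9.49 and 9.90 in wild type, 9.48 and 9.25 in camta3-1, and 9.30 and 9.43 in camta3-2. The wild-type arrays lay further apart than the means of the alleles did, and the lower wild-type array exceeded the highest mutant array by only 0.0068. The alleles had nearly equal log2 fold changes, -0.33 in camta3-1 (interval -0.71 to 0.05, limma adjusted p = 0.494) and -0.34 in camta3-2 (interval -0.72 to 0.05, limma adjusted p = 0.506). Without wild type replicate 1 these were -0.54 and -0.54, and without wild type replicate 2 -0.12 and -0.13, so the size rests on which wild-type array is used. The 4 enzyme probe sets differed more from wild type in camta3-1 than in camta3-2, and this probe set did not, a contrast between probe sets that was not tested.

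**Figure D2:**
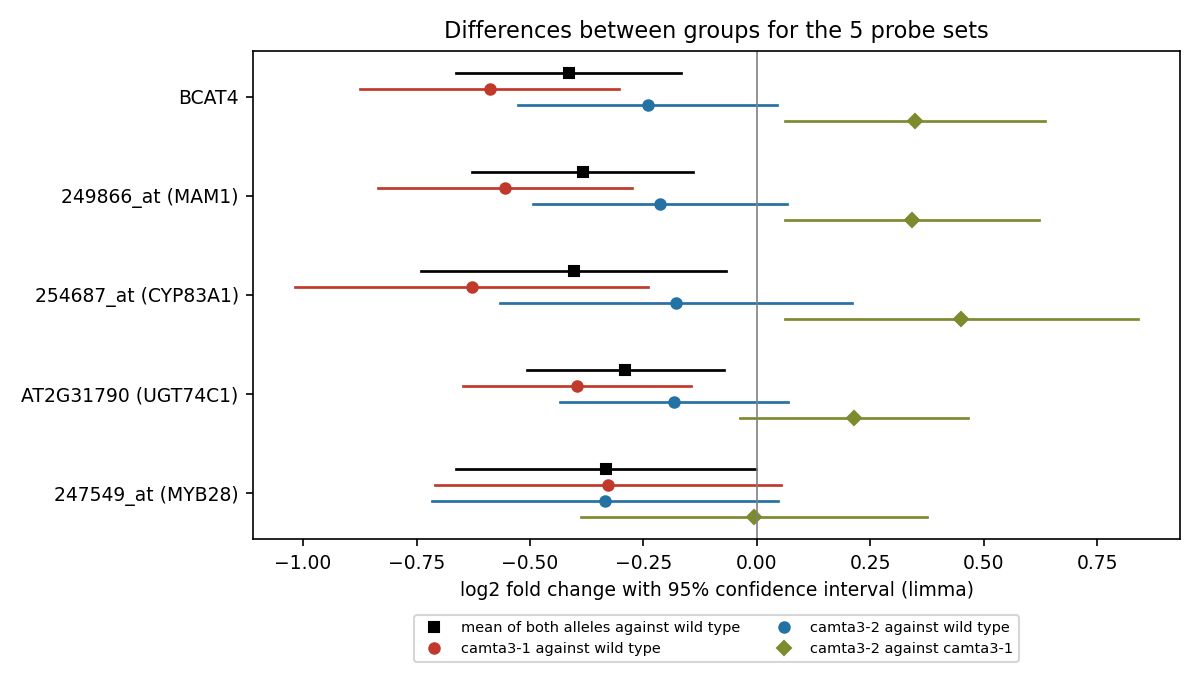
Log2 fold changes from limma for each of the 5 probe sets (rows), with lines for 95% confidence intervals; squares are the mean of both alleles, red and blue circles camta3-1 and camta3-2 against wild type, and diamonds camta3-2 minus camta3-1. Intervals in camta3-1 lie below 0 for the 4 enzyme probe sets, and all 5 intervals in camta3-2 cross 0.

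For the mean of both alleles, 5 of the 5 probe sets had an unadjusted p under 0.05 in limma (0.00514 to 0.0492), as did 13.4% of all probe sets, 8.08% with a lower level. The count was 4 with a block for replicate number, with cyclic loess scaling and with dim probe sets filtered out. In each of these 247549_at fell out, at an unadjusted limma p of 0.0501 to 0.0752. Without moderation of the variances the count was 3. Leaving out wild type replicate 2 moved the members' median log2 fold change from -0.38 to -0.30. In camta3-1 the count was 4 of 5, beside 7.18% of all probe sets with a lower level, and in camta3-2 it was 0 of 5, beside 6.59%. Without moderation these counts were 3 in camta3-1 and 1 in camta3-2. For a prior that follows intensity and is robust to outlying variances, BCAT4 and 249866_at passed in camta3-1, with limma adjusted p = 0.0412 and 0.0461. The 3 contrasts with wild type share its 2 arrays, so their common direction is not independent.

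All 4 mutant arrays lay below both wild-type arrays for 4 of the 5 probe sets, beside 15.8% of all probe sets. Both camta3-1 arrays did so for 5 of 5, beside 29.1%, and both camta3-2 arrays for 4 of 5, beside 28.9%. A share of 17.3% of all probe sets had a log2 fold change in camta3-2 at or below the members' median there, so the camta3-2 values are not far from the bulk of the array. In camta3-1 that share was 1.84%. The camta3-2 median was -0.13 without wild type replicate 2.

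The alleles were compared with each other directly. BCAT4 was higher in camta3-2 than in camta3-1 by 0.35 on the log2 scale (95% confidence interval 0.06 to 0.63), 249866_at by 0.34 (0.06 to 0.62) and 254687_at by 0.45 (0.06 to 0.84). Each of these had limma adjusted p = 0.778. AT2G31790 was at 0.21 (interval -0.04 to 0.47, limma adjusted p = 0.795) and 247549_at at -0.01 (interval -0.39 to 0.38, limma adjusted p = 0.998). Both camta3-1 arrays lay below both camta3-2 arrays for 4 of the 5, all of them enzymes, beside 14.9% of all probe sets. An unadjusted p under 0.05 was found for 3 of the 5, beside 2.49% of all probe sets in that direction, and for 0 of the 5 without camta3-1 replicate 2 or without camta3-2 replicate 1. For BCAT4, 249866_at and AT2G31790, 3 of the 5, the arrays were ordered camta3-1, camta3-2 and wild type with no overlap, beside 3.02% of all probe sets.

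The members were also compared by the shape of their profile, as the root-mean-square difference of log2 values centred over the 6 arrays. This likeness is a description, because all probe sets share the same arrays and their normalisation. Of the 22745 other probe sets, 249866_at was the 1 most like BCAT4, with a difference of 0.025, and in turn BCAT4 held place 2 for 249866_at. From BCAT4, AT2G31790 held place 177 and 254687_at place 197. Seen from AT2G31790, BCAT4 held place 1183 and 254687_at place 11773. Seen from BCAT4 again, the profile of 247549_at was less like, at place 2919 with a difference of 0.196. The annotated gene GSL-OH (AT2G25450), a side-chain dioxygenase that is no member, held place 3 for 254687_at with a difference of 0.0432.

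**Figure D3:**
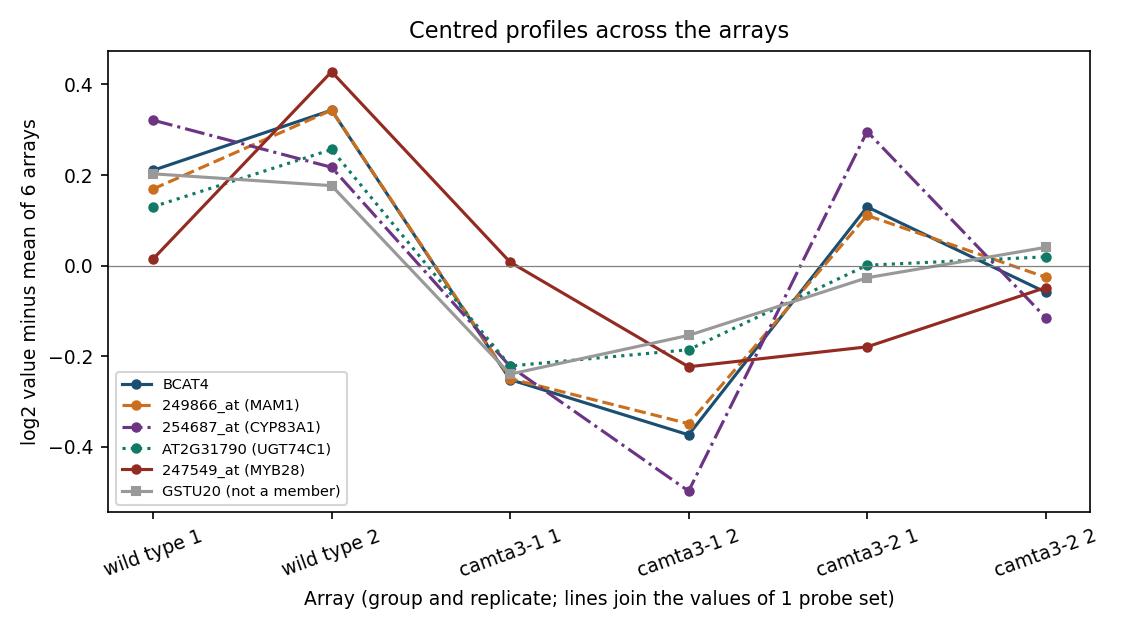
Log2 value minus its mean over the 6 arrays (vertical axis) for the 5 probe sets and for GSTU20, by array (horizontal axis, group and replicate); lines join values of 1 probe set and mark no order of the arrays. The lines of BCAT4 and 249866_at nearly coincide, and 254687_at swings most between the arrays of each mutant allele.

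Outside the set, the annotated genes nearest to the members' mean centred profile were sought among 13353. AT4G26860 was nearest, with a root-mean-square difference of 0.0325 on the log2 scale. It was followed by the plastid photosystem I gene psaA (0.033), AT2G21080 (0.0417), AT3G13040 (0.0497), AT1G64680 (0.0502) and AT4G12980 (0.0504). Their log2 fold changes for the mean of both alleles were between -0.40 and -0.28, and none of these 6 passed (limma adjusted p = 0.142 to 0.32). No gene of the glucosinolate lists was among them. Only 16 of the 90 listed pathway genes other than the members had an annotated probe set and could be found by this search.

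Other pathway genes were taken from lists written by locus from recall, of which 18 of 95 genes, both annotated members included, had an annotated probe set. Of 27 further aliphatic synthesis genes, 4 were measured and none passed in any comparison. All 4 had negative log2 fold changes in both alleles, with medians of -0.29 in camta3-1 and -0.17 in camta3-2, while 59% and 63.6% of all probe sets were below 0. GSTU20, a glutathione S-transferase placed at the sulfur-joining step, had values of 12.04 and 12.02 in wild type, 11.60 and 11.69 in camta3-1, and 11.81 and 11.88 in camta3-2. Its groups did not overlap and had the order seen for BCAT4, and its log2 fold change for the mean of both alleles was -0.28 (95% confidence interval -0.50 to -0.07, limma adjusted p = 0.239). GSL-OH read 11.84 and 11.72 in wild type, 11.31 and 10.96 in camta3-1, and 11.84 and 11.31 in camta3-2. As for 254687_at, the arrays of each allele lay apart and 1 camta3-2 array of GSL-OH reached the wild-type level. Its log2 fold change for the mean of both alleles was -0.42 (95% confidence interval -0.82 to -0.02, limma adjusted p = 0.349), with -0.64 in camta3-1 and -0.20 in camta3-2. The glucosyltransferase UGT74B1, which serves several glucosinolate classes, was at -0.15 (limma adjusted p = 0.692), and the dimly read side-chain gene AOP3 at -0.13 (limma adjusted p = 0.652).

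**Figure D4:**
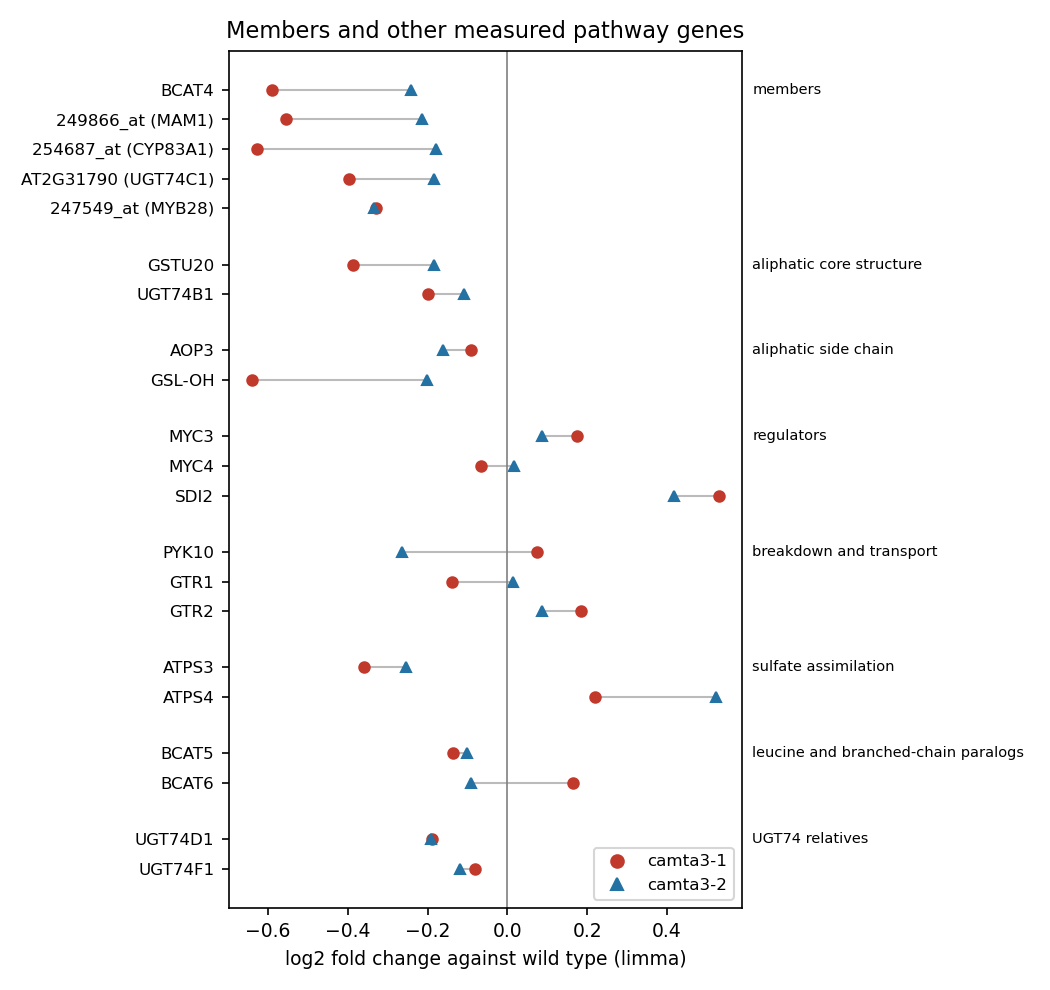
Log2 fold change against wild type (limma) of the 5 members and of the 16 other measured genes of the pathway lists, with circles for camta3-1 and triangles for camta3-2. The aliphatic genes lie left of 0 in both alleles, as do the sulfate assimilation gene ATPS3 and the relatives UGT74D1, UGT74F1 and BCAT5. The remaining genes vary in side, and none passed the test.

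Of 13 listed regulators, 3 were measured and none passed. SDI2 (AT1G04770), known as a repressor of aliphatic glucosinolate synthesis when sulfur is short, had log2 values of 7.62 and 7.39 in wild type, 7.63 and 8.44 in camta3-1, and 7.93 and 7.92 in camta3-2. Each mutant array was above wild type, by the slightest margin for camta3-1 replicate 1, and its log2 fold change of 0.47 did not pass (95% confidence interval -0.02 to 0.96, limma adjusted p = 0.393). MYC3 and MYC4, jasmonate-pathway factors that work with the MYB activators, were at 0.13 and -0.02 (limma adjusted p = 0.606 and 0.967).

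None of the 3 measured genes of 13 for breakdown and transport passed. The glucosinolate importers GTR1 and GTR2 were at -0.06 and 0.14 for the mean of both alleles (limma adjusted p = 0.899 and 0.717), and the beta-glucosidase PYK10 at -0.09 (limma adjusted p = 0.933). Of 11 sulfate assimilation genes, the ATP sulfurylases ATPS3 and ATPS4 were measured and did not pass. They pointed opposite ways, at -0.31 and 0.37 (limma adjusted p = 0.443 and 0.254). None of the 13 listed indole glucosinolate genes was analysed here.

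Relatives of the members with other substrates did not pass either. Of 9 paralogs in branched-chain amino acid metabolism, BCAT5 and BCAT6 were measured, at -0.12 and 0.04 for the mean of both alleles (limma adjusted p = 0.70 and 0.962). Of 5 relatives of UGT74C1, UGT74D1 was at -0.19 (95% confidence interval -0.47 to 0.09, limma adjusted p = 0.571) and UGT74F1 at -0.10 (limma adjusted p = 0.745). In camta3-2 UGT74D1 was at -0.19 and AT2G31790 at -0.18, the interval of UGT74D1 for the mean of both alleles overlaps that of AT2G31790, and the difference between genes was not tested.

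The median log2 value of an array was 6.18 to 6.26, and correlations over all probe sets were 0.992 to 0.995 within groups and 0.986 to 0.994 between them. Differences between 3' and 5' control probe sets spanned 3.39 to 3.55 (actin), 0.14 to 0.46 (GAPDH) and 1.19 to 1.33 (ubiquitin). Ubiquitin was at 1.26 and 1.33 in wild type, 1.32 and 1.32 in camta3-1, and 1.19 and 1.20 in camta3-2. GAPDH was at 0.17 and 0.46 in wild type, 0.18 and 0.45 in camta3-1, and 0.29 and 0.14 in camta3-2. Actin was at 3.39 and 3.52 in wild type, 3.49 and 3.41 in camta3-1, and 3.55 and 3.51 in camta3-2. The part of these controls in the members' differences was not tested. Of 12 leaf photosynthesis markers 2 were measured, RCA and LHCB4.2, at 13.00 or more on every array, and the 2 measured of 7 root markers, EXPA7 and EXPA18, read 4.28 to 4.68. The light-harvesting gene LHCB4.2 read 13.56 and 13.35 in wild type, 13.21 and 13.00 in camta3-1, and 13.42 and 13.31 in camta3-2 (log2 fold change -0.35 in camta3-1, limma adjusted p = 0.342), so it was lowest on the arrays where the members were lowest. The Rubisco activase gene RCA was at 0.05 in camta3-1. The 1 measured of 7 senescence markers, SAG29, read 7.06 and 5.20 in wild type, 4.87 and 5.08 in camta3-1, and 7.79 and 5.10 in camta3-2, high on replicate 1 of wild type and of camta3-2 only. The part of these markers in the members' differences was not tested, and the 4 flower markers were not analysed here.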

How the data were processed

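Biotin-labelled target from total RNA was hybridised to 6 arrays, 2 for each of 3 groups. The authors deposited log2 expression values per probe set, made with RMA and Partek per the submitters' processing notes, with no versions stated. RMA compresses differences between dim signals, and its quantile step hides a shift common to all transcripts. Of 22810 probe sets, 64 controls were left out. The annotation gave 1 gene for 13513, several for 503 and none for 8730. Symbols came from a RefSeq table (assembly TAIR10.1), and the brightest probe set stood for a gene. One mean per group was fitted in limma 3.58.1 (R 4.3.3) with empirical Bayes moderation (3 residual and 4.43 prior degrees of freedom), with Benjamini-Hochberg adjustment over 22746 probe sets. The median standard error for the mean of both alleles was 0.11, and the number of arrays limits the precision. The fit was tested on simulated data whose changes were all larger than those of the members. That run cannot show whether changes of the members' size would be called. The members and the lists were chosen with earlier results of these data known. Named genes were the members, list genes that passed or had the smallest p (up to 4 a list), and the 6 nearest profiles. GSL-OH was singled out as a neighbour of 254687_at after its values were seen. Alternatives were a replicate block, other scalings, a filter on dim probe sets, other priors, fits of 2 groups, annotated probe sets, and leaving out each array. Promoter and protein sequences were not used here. Plots used matplotlib 3.10.9 under Python 3.11.15.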

Additional observations from a re-analysis of the deposited data

How the results depend on the processing

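No member passed in any comparison under the alternatives run, except that 2 passed in camta3-1 with the trended and robust prior, as given above. All log2 fold changes of the members kept their direction for the mean of both alleles (65 of 65 values) and in camta3-1 (70 of 70). By construction, the replicate block, the dim filter, the other priors, no moderation and the annotated probe sets leave a log2 fold change as it was. In camta3-1 so do the fit of 2 groups and leaving out a camta3-2 array. These repeats are counted in the totals, which therefore overstate how often the direction could have turned. In camta3-2, 254687_at ranged from -0.38 to 0.0269 when single arrays were left out, the highest without camta3-2 replicate 2. Between the alleles 247549_at turned to 0.0097 with cyclic loess and 0.0381 with median centring, and ranged from -0.12 to 0.11 when single arrays were left out, while the median of the members ranged from 0.25 to 0.41. The number of probe sets called moved far more. With the replicate block it was 493 for the mean of both alleles, 430 in camta3-1 and 280 in camta3-2. The labels tie same-numbered arrays by a number only. Deviations from group means correlated at 0.402 between the alleles, -0.037 between wild type and camta3-1, and 0.134 between wild type and camta3-2. Over all probe sets, same-numbered arrays of different alleles correlated at 0.994 and 0.9937. Replicates within camta3-1 and within camta3-2 correlated at 0.9929 and 0.9916. The mutant arrays thus shared part of their replicate differences, and the source of this was not tested. With the block 0 members passed, the smallest adjusted p being 0.0578 for 254687_at in camta3-1. Without moderation 0 probe sets passed in each of the 4 comparisons, with 2348, 2174, 2042 and 1210 at an unadjusted p under 0.05. Among annotated probe sets and the members, fewer being tested, 166, 112 and 67 passed for the mean, camta3-1 and camta3-2, and 270 passed for camta3-2 in a fit of 2 groups. Leaving out single arrays gave 5 to 458 probe sets for the mean of both alleles, 2 to 333 in camta3-1, 5 to 270 in camta3-2 and 1 to 7 between the alleles, with the lowest counts against wild type all without wild type replicate 1. The cause was not tested. With 2 arrays a group, the 95% intervals in camta3-2 included 0 for all 5 members, with lower ends between -0.72 and -0.43 on the log2 scale.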

Other observations

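Genes next to the members on the chromosomes were read for the same comparisons. The nearest annotated and measured gene on each side of the 5 loci gave 10 neighbours in the RefSeq gene order, of which 0 passed for the mean of both alleles (limma, smallest adjusted p = 0.571). Their log2 fold changes ran from -0.19 to 0.19, and 7 of the 10 were below 0, beside 62.6% of all probe sets. For BCAT4 the neighbour IKU2, a receptor-like kinase gene of seed development, was at -0.12. The lowest neighbour was UGT74D1, a relative of UGT74C1 that lies 10 genes from AT2G31790. In camta3-2 it was at -0.19, beside -0.18 for AT2G31790, so the neighbours' range there overlaps that of the members. For the 3 probe sets without an annotated gene the neighbours rest on the pairing with a locus, which was not checked here.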
